A study of Homo sapiens with 2 samples.

Results

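Linker histone H1 genes were examined among the genes that the peak annotation of an ALKBH5 RNA immunoprecipitation named. ALKBH5 removes the methyl group of N6-methyladenosine from RNA, and the cells were HL-60, a human line established from a promyelocytic leukaemia. The members were selected on their presence in the deposited term tables, with no level involved, as entries whose symbol begins with H1-, HIST1H1 or H1F. The 4 genes described here, of the 5614 symbols in those tables, are written there under older names: HIST1H1C (now H1-2), HIST1H1D (H1-3), HIST1H1B (H1-5) and H1FX (H1-10). The study kept a part of the lysate as input, gave 80% to the ALKBH5 antibody and 10% to rabbit IgG, per the series design text. There was 1 input library and 1 immunoprecipitate (IP) library. Both carry the cell line label HL60 cells and the genotype label ALKBH5, with no treatment, time or other allele in the labels. Titles and library names of the 2 libraries contradict each other on which is input and which is IP; the library names were followed. An IgG library was not analysed here.

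Linker histones bind the DNA that enters and leaves the nucleosome and help chromatin fold into a compact state. Human cells hold somatic variants encoded in the large histone gene cluster of chromosome 6, which are made mainly in S phase from mRNAs that end in a stem-loop instead of a poly(A) tail. H1-10 is encoded elsewhere, is made outside S phase as well and has a polyadenylated mRNA. The labels' protocols name a stranded mRNA kit, and whether poly(A) RNA was selected is not stated there.

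The promoters of the 4 genes were in the RefSeq promoter table (GRCh38.p14). That of H1-4, an unlisted somatic variant, is shown beside them because it shares the layout of the listed chromosome 6 genes. The 130 bases before the annotated start are printed 5′ to 3′ on the strand of the gene. Capitals mark AAACACA, the H1 box known from promoters of replication-dependent linker histones, CCAAT, which binds the factor NF-Y, and TATAAA or TATATA, all on either strand; TATAAA and TATATA overlap in TATATAAA.
H1-2, chr6:26056471-26056600, minus strand: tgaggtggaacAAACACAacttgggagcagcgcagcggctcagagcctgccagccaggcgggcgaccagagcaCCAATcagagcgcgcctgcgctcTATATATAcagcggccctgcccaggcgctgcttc
H1-3, chr6:26234988-26235117, minus strand: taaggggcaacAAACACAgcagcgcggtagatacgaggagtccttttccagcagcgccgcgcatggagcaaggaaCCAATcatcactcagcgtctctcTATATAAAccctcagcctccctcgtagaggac
H1-5, chr6:27867589-27867718, minus strand: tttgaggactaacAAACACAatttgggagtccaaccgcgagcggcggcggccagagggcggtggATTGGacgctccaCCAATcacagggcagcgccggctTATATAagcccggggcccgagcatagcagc
H1-10, chr3:129316287-129316416, minus strand: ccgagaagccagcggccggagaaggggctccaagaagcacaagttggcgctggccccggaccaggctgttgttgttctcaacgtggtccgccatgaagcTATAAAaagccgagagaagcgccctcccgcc
H1-4, chr6:26156199-26156328, plus strand: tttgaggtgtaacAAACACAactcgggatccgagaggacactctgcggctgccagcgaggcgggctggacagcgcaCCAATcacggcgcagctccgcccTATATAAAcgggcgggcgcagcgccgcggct

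The 3 listed genes of chromosome 6 held the H1 box, CCAAT and a TATA sequence in the same order and at nearly the same places. The H1 box nearest the start began at position -119 in H1-2 and H1-3 and at -117 in H1-5. From its first base to that of CCAAT on the strand of the gene there were 62 bases in H1-2, 64 in H1-3 and 64 in H1-5. A further AAACACA began at -242 on the opposite strand in H1-2. In H1-5 a further one began at -226 on the strand of the gene. The unlisted H1-4 had the H1 box at -117 and the same order, with 63 bases between the elements. In the unlisted H1-6, a testis variant, the box stood at -105 with 51 bases to CCAAT. The unlisted H1-1 had AAACACA only on the opposite strand, at -183. The layout was thus found in the 3 listed genes of the cluster and in the unlisted H1-4, so it did not mark listed genes alone. In H1-6 the H1 box stood nearer the start, and H1-1 had none on the strand of the gene. In the H1-10 window neither the H1 box nor CCAAT was matched, and TATAAA began at -31. Windows of 250 bases before to 50 after the start were read for 9 linker histone genes, the 4 listed ones and 5 unlisted ones. AAACACA was present in 7 of the 9, on either strand, against 5.64% of all 35116 promoter windows. In H1-1 and H1-7 it lay on the opposite strand only. The H1 box was known from promoters of replication-dependent linker histones, so its frequency here is no independent finding. CCAAT was in 8 of the 9 against 34.6%. H1-8, with 2 annotated starts, was counted once. TATAAA was in 4 of the 9 against 11.5% of windows, and TATATA in 6 of the 9 against 3.99%. These are matches of letters and not sites shown to bind a factor.

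**Figure D1:**
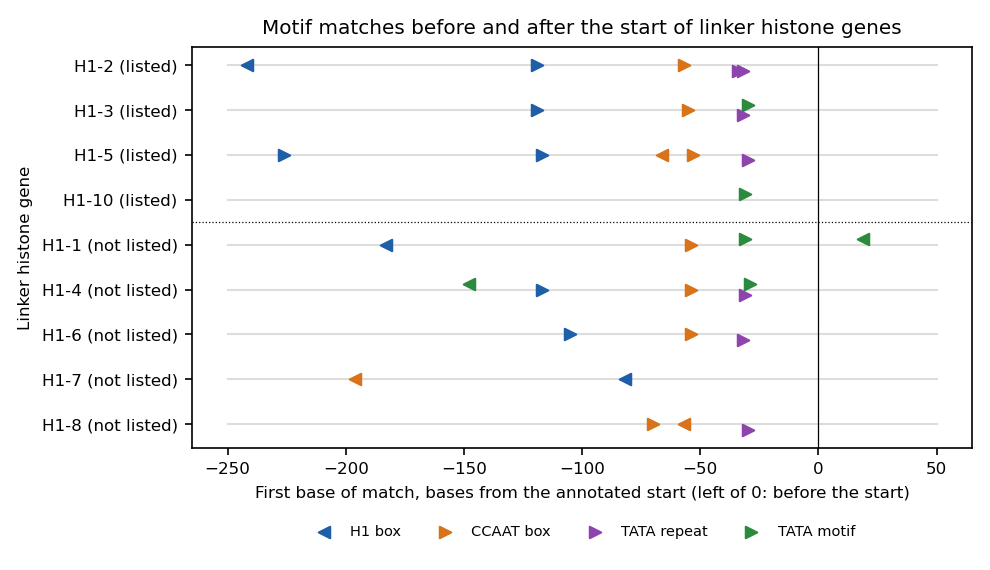
Motif matches in the windows of 9 linker histone genes; the horizontal axis is the first base of each match in bases from the annotated start, right-pointing marks lie on the strand of the gene and left-pointing marks on the other (of 2 annotated starts of H1-8, the window with matches is drawn). H1-2, H1-3, H1-5 and H1-4 carry an H1 box between -119 and -117, and H1-10 carries TATAAA at -31 alone. H1-2 and H1-5 hold a further AAACACA farther from the start.

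The tables hold neither expression levels nor values of single libraries. A gene is therefore called listed when a GO or KEGG term names it, and the depth behind it is unknown. Terms entered the deposited tables with a p-value under 0.05, so a gene outside every such term may still have had a peak. Of the 9 protein-coding linker histone genes considered, 4 were listed (44.4%, exact Clopper-Pearson 95% interval 13.7 to 78.8%, counting error only), beside 25.9% of all 20056 protein-coding genes. Since listing chose the members, this count is a description and was not tested. The unlisted genes were H1-1, a variant of narrow tissue range, H1-4, a widespread somatic variant, and the germ-line variants H1-6, H1-7 and H1-8.

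H1-10, a divergent variant, spans 129314771 to 129316286 of chromosome 3 (GRCh38.p14) and was entered under gene identifier 8971. The other 3 lie in the chromosome 6 cluster. H1-2 spans 26055740 to 26056470 (identifier 3006), H1-3 spans 26234212 to 26234987 (3007) and H1-5 spans 27866792 to 27867588 (3009). Each of the 4 has 1 RefSeq transcript. In all 4 cases the deposited identifier was that of the gene itself, and no other symbol carried it. The 4 were short genes, from 731 bases (H1-2) to 1516 bases (H1-10) with a median of 786.5. Most unlisted linker histone genes were short too, with 1 RefSeq transcript each: H1-1 756, H1-4 787, H1-6 724 and H1-7 1300 bases. H1-8 had 8293 bases and 3 transcripts. The median over 5201 listed protein-coding genes was 35341 bases, and 0.211% of them were no longer than H1-2 and 0.519% no longer than H1-10.

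Along chromosome 6 the 6 linker histone genes stand in the order H1-1, H1-2, H1-6, H1-4, H1-3 and H1-5, of which H1-2, H1-3 and H1-5 were listed. H1-2 thus lay between unlisted genes, and the listed H1-3 and H1-5 came last. The gap was 37952 bases between H1-1 and H1-2 and 1631804 bases between H1-3 and H1-5. From H1-1 to H1-5, 3 of 6 linker and 6 of 42 core histone genes were listed, beside 25.9% of all protein-coding genes; with so few linker genes no difference from that share can be read. The antisense gene H1-10-AS1 overlaps the start of H1-10 by 16 bases. It was in none of the 3 tables, and the labels do not say whether peaks were annotated by strand.

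All 4 members were named under RNA binding (GO:0003723) and nucleus (GO:0005634), and these were the only terms that all 4 shared. In the authors' deposited table RNA binding had 821 entries on 1366 background genes, a rich factor (the term's share over the overall share) of 1.80 and 5.33e-16 as corrected p-value. For nucleus the authors' deposited table gave 2319 entries on 5208 background genes, a rich factor of 1.34 and 0.00503 as corrected p-value. Ranked by the deposited p-value among the 311 GO terms, RNA binding stood at place 2 and nucleus at place 23. Both terms had a corrected p under 0.05, the limit used here, as did 12.2% of the listed GO terms. H1-2 and H1-3, of which H1-2 is known to leave the nucleus after DNA breaks and promote apoptosis, were named under these 2 terms alone. The listing of H1-2 and H1-3 therefore rests on these annotations: with both terms left out, 2 of the 4 genes, H1-5 and H1-10, would still be listed.

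H1-10 had the most terms, 5 in all, each with a corrected p under 0.05 in the authors' deposited table. Beside the shared pair it was an entry of nucleoplasm (GO:0005654), to which the authors' deposited table gave 1939 entries, 3630 background genes and 3.05e-20 as corrected p-value. Of the 4 it was also the only one under nucleolus (GO:0005730; 487 entries, 839 background genes, 1.15e-07) and cadherin binding (GO:0045296; 184 entries, 305 background genes, 0.00398), again from the authors' deposited table.

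H1-5 had 4 terms, and it was the only one of the 4 with terms that speak of chromatin. Histone deacetylase binding (GO:0042826) took 69 entries on 114 background genes in the authors' deposited table, where its p-value was 0.00507 before and 0.366 after correction. Chromatin organization (GO:0006325) had 71 entries on 137 background genes in the authors' deposited table. Its p-value of 0.0488 there lay just inside the limit for listing, and its corrected p was 1. Neither of these terms had a corrected p under 0.05. No KEGG pathway named any of the 4. KEGG pathways were 38 of the 349 listed terms. The share of all symbols that they named was not counted, so this absence is not read as a trait of linker histones.

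**Figure D2:**
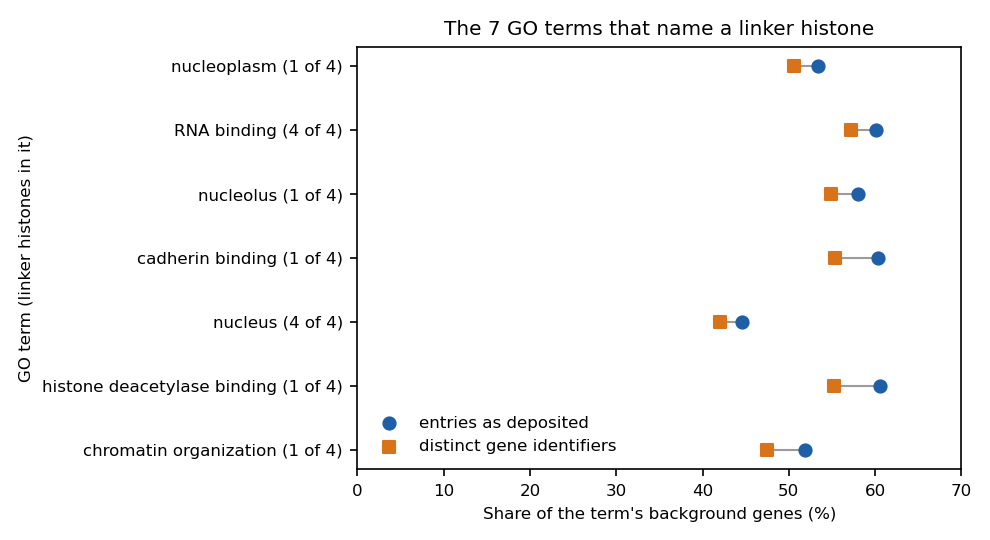
Share of background genes (horizontal axis, percent) of the 7 GO terms that name one of the 4 linker histones, with entries as deposited in blue and distinct gene identifiers in orange. RNA binding moves from 60.1% to 57.2% and nucleus from 44.5% to 42.1% when each identifier is counted once.

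Several symbols in these tables carry the identifier of another gene, which raises the entries of a term above its distinct genes. In RNA binding the 821 entries stood on 782 identifiers, 57.2% of the background genes. The 2319 entries of nucleus stood on 2190 identifiers, or 42.1%. In histone deacetylase binding 69 entries stood on 63 identifiers (55.3%), and in chromatin organization 71 stood on 65 (47.4%). The linker histone entries did not add to this excess.

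Listed terms with words for chromatin in their name were searched for histones of either kind. A linker histone was named by 7 of all 349 listed terms, so the small counts below are not read as scarcity. The matching count over all terms is not given here for core histones, and no difference was tested. Of the 6 listed terms with chromatin in their name 1 named a linker histone and 2 named a core histone. Of the 12 terms with histone in their name 1 named a linker and 1 a core histone. Of the 8 terms with chromosome in theirs none named a linker and 2 named a core histone, and mitotic chromosome condensation named neither. Nucleosome binding named neither kind, and of the 5 terms with DNA binding in their name none named a linker and 2 named a core histone. These words were chosen after the tables were read. The annotation of genes outside the listed terms was not analysed here.

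The number of terms per member ranged from 2 to 5 with a median of 3, beside a median of 4 over all 5614 symbols, whose range was 1 to 40. H1-2 and H1-3 shared both of their terms, and they had the highest likeness of any pair of members. Likeness is given as the Jaccard index, the number of shared terms over the number of terms that either gene has, across 349 listed terms. It was 1 for H1-2 with H1-3, 0.5 for H1-5 with either of them, and lowest, 0.286, for H1-5 with H1-10.

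**Figure D3:**
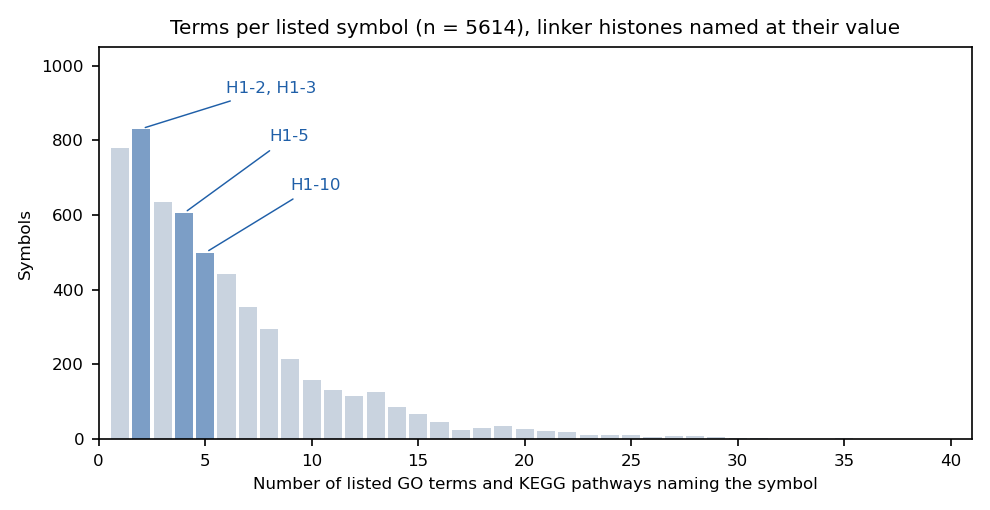
Number of symbols (vertical axis) by the number of GO terms and KEGG pathways that name them (horizontal axis), for 5614 symbols. H1-2 and H1-3 stand at 2 terms, H1-5 at 4 and H1-10 at 5, on either side of the median of 4 or at it.

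Each member was compared in the same way with the 5613 other symbols. For H1-2, 11 symbols reached an index of 1, and the first of these in the alphabet were AC009133.12, FAM120C, HIST1H1D, LARP1B and MAZ; for H1-3 they were the same with HIST1H1C in place of HIST1H1D. Both terms of H1-2 were also held by 468 other symbols, many with further terms. H1-10 was closest to NKRF at 0.8, then to EWSR1 and RPS25 at 0.667 and BRIX1 and DNTTIP2 at 0.6. H1-5 stood farther from other genes: its closest was FAM50A at 0.6, followed by AC009133.12, BRD9, FAM120C and FAM50B at 0.5, and no other symbol held all 4 of its terms. These values describe shared annotation.

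Core histones, which form the nucleosome itself, differed from linker histones in some terms and shared others. All 4 linker histones and none of the 12 listed core histone symbols were named under RNA binding. DNA binding (566 entries, 1209 background genes and 0.182 as corrected p-value from the authors' deposited table) named 9 of the 12 core and none of the 4 linker histones. Chromatin organization named 8 of the 12 core histones and, among the 4 linker histones, H1-5. Nucleus named 7 of the 12 core and all 4 linker histones. Nucleoplasm named 5 core histones and cadherin binding 2, and among the linker histones both terms named H1-10 alone. The 12 core symbols stood on 10 identifiers. The 2 core symbols under cadherin binding, HIST1H3B and HIST1H3H, carried the same identifier. The differences in terms are ones of annotation and were not tested. HIST1H2BN, HIST2H2BF and HIST1H4C, now H2BC15, H2BC18 and H4C3, were listed through the KEGG pathway Viral carcinogenesis alone.

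**Figure D4:**
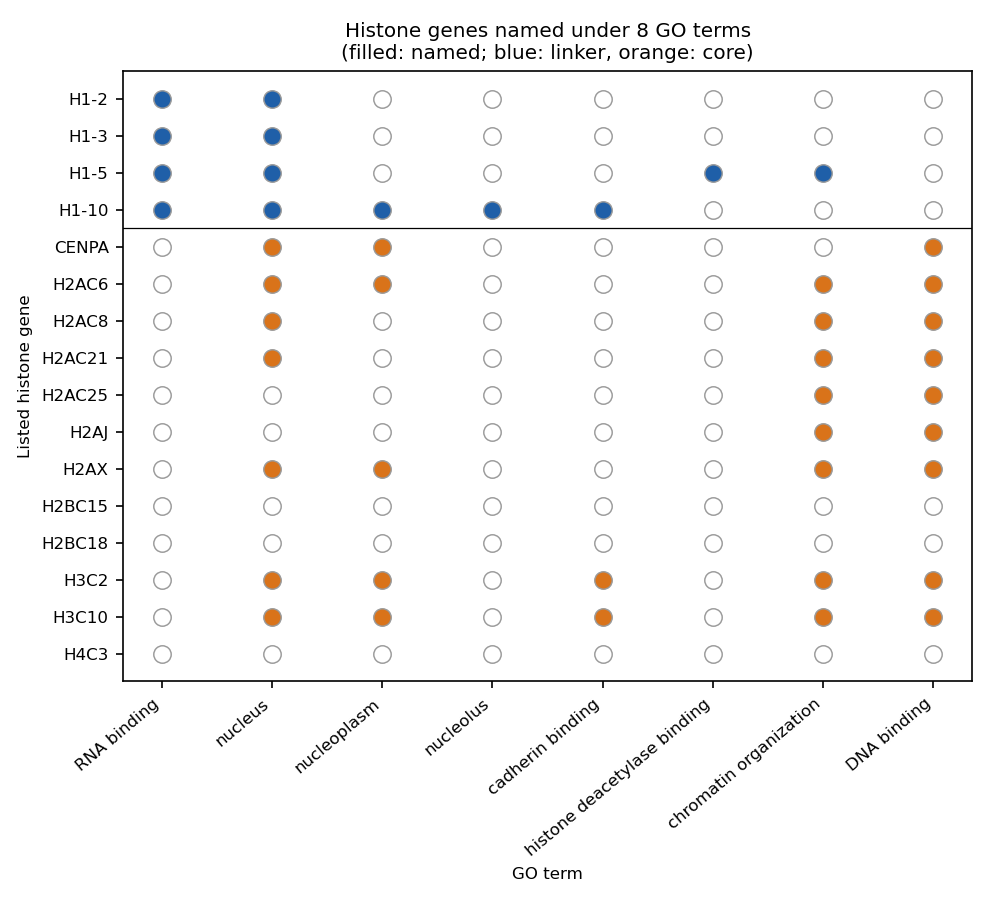
Listed histone genes (rows, 4 linker in blue and 12 core in orange) under the 7 GO terms that name one of the 4 linker histones and DNA binding (columns); a filled circle means that the term names the gene. The RNA binding column is filled for the 4 linker histones only, and the DNA binding column for 9 of the 12 core histones only.

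By class, 4 of 17 H2A genes were listed (23.5%, H2AC6, H2AC8, H2AC21 and H2AC25), 2 of 18 H2B genes (11.1%), 2 of 13 H3 genes (15.4%, H3C2 and H3C10) and 1 of 15 H4 genes (6.67%, H4C3). Together 9 of 63 replication-dependent core histone genes were listed (14.3%, 95% interval 6.75 to 25.4%), beside 25.9% of all protein-coding genes. Of the 18 core histone variants 3 were listed, namely CENPA, the histone of centromeres, H2AJ and H2AX, which marks DNA breaks. Of the 12 core symbols 8 carried an identifier of their own, where all 4 linker symbols did: HIST1H3B and HIST1H3H shared that of H3C1, and HIST1H2BN and HIST2H2BF that of H2BC6. Core histone genes of a class are known to be close copies of each other; their sequences were not compared here, and which copy lies behind each of these 4 entries is uncertain.

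None of the 4 linker histones was in the table that pairs genes with families of RNA-binding proteins. This held by the symbol in the files and by every older symbol and alias of the reference. A count of 0 of 4 allows a share of up to 60.2% (exact 95% interval), and 19.8% of the 5614 symbols were in that table. Of the 821 entries of RNA binding, the term that all members share, 121 were in it (14.7%, 95% interval 12.4 to 17.4%). With 4 genes the absence of linker histones cannot be told from these shares. None of the 12 listed core histones was in it either.

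Genes that act on linker histones or on histone mRNA were counted in the same way. Of the 22 factors for synthesis, processing and decay of histone mRNA 16 were listed (72.7%, 95% interval 49.8 to 89.3%), beside 25.9% of all protein-coding genes. In alphabetical order they began with CASP8AP2, which localises to histone locus bodies, the cleavage factors CPSF1, CPSF2 and CPSF3, of which CPSF3 is the endonuclease, and the stimulation factor subunits CSTF2 and CSTF2T. The 6 unlisted ones, named after their status was seen, were SLBP, the protein that binds the stem-loop of histone mRNA, LSM10 and LSM11 of the U7 particle, CPSF4, NCBP2 and TUT4. CPSF2, CSTF2T, SYMPK and WDR33, the last 2 also named after their status was seen, were in the family table as well.

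Of 12 chaperones and import receptors of linker histone 8 were listed (66.7%, 95% interval 34.9 to 90.1%), beside 25.9% of all protein-coding genes. They included the importins IPO4, IPO5, IPO9 and KPNB1, and NAP1L4 and NASP, both histone chaperones. SET, NAP1L1, ANP32B and IPO7, named after their status was seen, were unlisted. Of 16 chromatin proteins that meet H1 at linker DNA 8 were listed (50%, 95% interval 24.7 to 75.3%). Among them were CBX5, a heterochromatin protein, CTCF, DNMT1, DNMT3B, HMGB1 and L3MBTL1. Unlisted in this list, and named after their status was seen, were HMGA1, HMGA2, HMGB2, HMGN1, HMGN2, HMGN3, CBX1 and CBX3. Of 9 genes of apoptotic DNA fragmentation, in which linker histone is known to stimulate the nuclease, 4 were listed (44.4%, 95% interval 13.7 to 78.8%): DFFB, the nuclease itself, ENDOG, HMGB1 and KPNB1. The intervals of these last 2 lists contain the 25.9% of all protein-coding genes, so their counts are not set apart from it. No count of these lists, including the first ones, was tested against that share, and the lists were chosen with earlier results known. A gene is listed only where a listed term names it, so these shares depend on annotation too. HMGB1 and KPNB1 each stand in 2 of these lists.

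**Figure D5:**
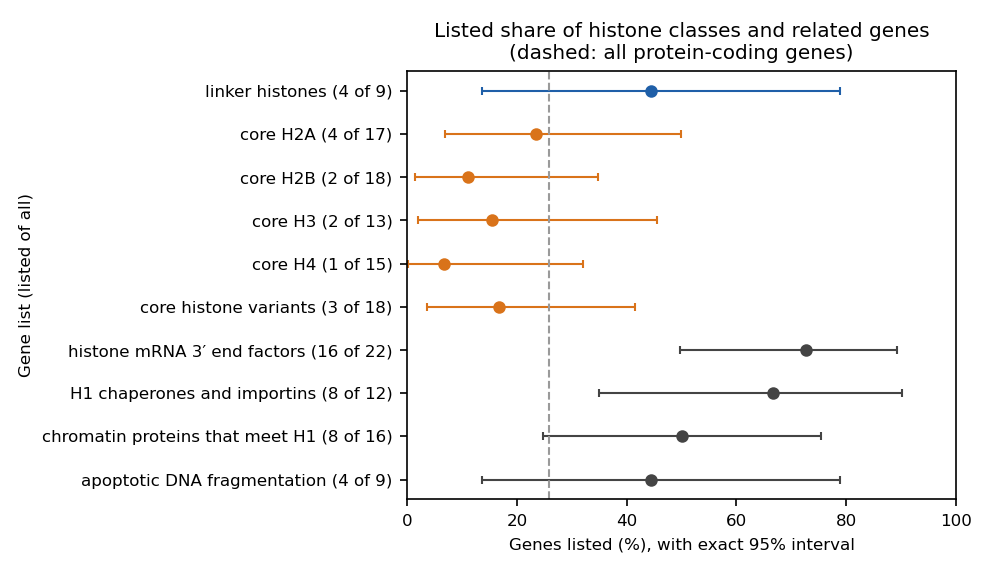
Share of genes listed (horizontal axis, percent) in 10 gene lists, with exact 95% intervals as bars and the 25.9% of all protein-coding genes as a dashed line. Linker histones stand at 44.4%, the 4 replication-dependent core classes between 6.67 and 23.5%, and factors of histone mRNA at 72.7%.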

How the data were processed

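RNA of 1 input and 1 ALKBH5 IP library of HL-60 cells lies behind 3 tables of the whole series, with hg38 as the build named by the submitters' processing notes. Neither an aligner nor a peak caller is given in the sources used here. Per the file headers, the authors deposited for each GO or KEGG term the count of input entries and of background genes, a rich factor (a ratio), a p-value and a corrected p-value. The other deposited table pairs symbols with families of RNA-binding proteins and holds no number; how it was made is not given in the sources used here.

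From these, entries were split into identifier and symbol and matched to the RefSeq gene table (GRCh38.p14) by symbol and then by unambiguous alias. This matched 5280 of 5614 symbols. Counts, exact Clopper-Pearson intervals (SciPy 1.17.1), Jaccard indices and motif matches were computed in Python 3.11.15, with functions tested on simulated data. Protein sequences were not used here, and an item is not reported here. No test was made, since the members were chosen by being listed, each group has 1 library, and intervals cover counting error only. The members and lists were chosen with earlier results of these data known. The text names the linker histone genes considered, up to 6 listed genes per list in alphabetical order, and the 5 symbols of highest Jaccard index per member, ties in alphabetical order. Unlisted genes of some lists were named after their status was seen. The alternatives were single tables, terms with a corrected p under 0.05, matching by identifier, terms left out and other promoter settings.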

Additional observations from a re-analysis of the deposited data

How the results depend on the processing

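The 4 listed linker histones were 4 in the GO table alone, in terms with a corrected p under 0.05, by identifier, without RNA binding and without nucleus, and 0 in the KEGG table alone. Without RNA binding and nucleus together the count was 2. Leaving out terms, matching core histones and lists by identifier, and TATATA were chosen after seeing the data. H2B genes went from 2 to 0 in GO alone, 0 in terms with a corrected p under 0.05 and 1 by identifier. H3 genes went from 2 to 1 by identifier. The H4 gene went from 1 to 0 in GO alone and to 0 in terms with a corrected p under 0.05. Of 40 alternative values, 32 stayed within 1.5 times of the main count. No paired analysis was possible because each group has 1 library and the tables hold no value per library. Depth is unknown, so an unlisted gene cannot be read as unbound.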

Other observations

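Between H1-1 and H1-5 on chromosome 6 the reference places 15 protein-coding genes that are not histones, and 5 of them were listed, beside 25.9% of all protein-coding genes. They were BTN2A1, BTN2A2, BTN3A1 and BTN3A3, which encode butyrophilins, surface proteins of the immunoglobulin superfamily, and ABT1, a nuclear protein linked to basal transcription. In the same interval 9 of 48 histone genes were listed. A difference of either count from that share was not tested.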
